A study of Mus musculus with 8 samples.

Results

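The tissue inhibitors of metalloproteinases and a set of ADAM and ADAMTS proteases were described in lung mesenchymal cells. The 10 genes were Timp1, Timp2, Timp3 and Timp4, the membrane proteases Adam8, Adam12 and Adam19, and the secreted proteases Adamts1, Adamts4 and Adamts5. They were taken by name from array rows annotated with exactly 1 gene, and each gene was represented by the row with the highest mean over the 8 arrays. All 10 were measured, among 22180 genes in all, and no filter on low values was applied. Cells came from the lungs of 11-week-old C57BL/6J mice held under specific pathogen-free conditions. The bleomycin group (4 arrays) had received bleomycin into the trachea, a DNA-damaging antibiotic used to provoke lung injury and fibrosis, and the control group (4 arrays) had received phosphate-buffered saline by the same route. On day 10 cells lacking CD45, CD31 and EpCAM, the surface antigens of leukocytes, endothelium and epithelium, were collected by flow cytometry. The gate is defined by what the cells lack, so fibroblasts, pericytes, smooth muscle and mesothelium can all be in it. The labels do not say whether replicates came from separate animals, so the p-values cover variation among these arrays, part or all of which could be technical.

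TIMPs are small secreted proteins that occupy the active site of matrix metalloproteinases and of some ADAM and ADAMTS enzymes. ADAMs are mostly membrane-anchored metalloproteinases that release the outer parts of growth factors, cytokines and receptors, and several also bind integrins. ADAMTS enzymes are secreted, attach to the matrix through thrombospondin repeats, and include enzymes that cleave the large proteoglycans versican and aggrecan. In injured lung this balance of proteases and inhibitors is one of the known determinants of how matrix is laid down and removed.

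Promoter sequence was available for 7 of the 10 genes in RefSeq (GRCm38.p6), in 9 windows that run from 250 bases before to 50 bases after a transcription start. Adam12, Adamts4 and Adamts5 had no window, so they could not be searched, although Adam12 and Adamts4 rose. Timp1 and Adam19 are shown because both genes rose and each has a motif of the AP-1 type (AP-1 is the Fos and Jun transcription factor), and Timp3 because it is the TIMP that fell. Neither the window of Adam8, which rose as well, nor the other windows of Adam19 held a motif of this type. All sequences are on the plus strand and written 5′ to 3′, and capitals mark a motif. The first pair are 30-base windows, of Timp1 at chrX:20870181-20870210, which lies just after the start, and of Adam19 at chr11:46055842-46055871, before the second of its 3 annotated starts.
Timp1: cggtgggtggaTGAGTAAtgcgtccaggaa
Adam19: tgtccttcaccTGAGTCAgcgatgctcccg
The next pair are the 250 bases before the start, of Timp1 at chrX:20869916-20870165 and of Timp3 at chr10:86300162-86300411, with the GC box in capitals on its complementary strand.
Timp1: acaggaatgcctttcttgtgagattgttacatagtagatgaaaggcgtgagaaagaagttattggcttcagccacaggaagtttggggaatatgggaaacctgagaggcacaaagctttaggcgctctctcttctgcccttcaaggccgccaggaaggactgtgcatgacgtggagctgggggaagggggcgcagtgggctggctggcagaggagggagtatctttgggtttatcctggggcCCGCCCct
Timp3: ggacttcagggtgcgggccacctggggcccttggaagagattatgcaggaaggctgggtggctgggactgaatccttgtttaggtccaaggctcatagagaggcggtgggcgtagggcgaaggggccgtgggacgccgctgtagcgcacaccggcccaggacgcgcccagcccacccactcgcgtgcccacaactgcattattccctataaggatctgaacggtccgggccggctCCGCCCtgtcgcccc

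Motifs were searched on both strands, and none of them overlaps another in these windows. The AP-1 consensus TGANTCA was present in 1 of the 9 windows, that of Adam19 at position -131 from the start, and in 7.81% of all 32851 RefSeq promoter windows of the same length. The variant TGAGTAA, an AP-1 site known from the mouse Timp1 promoter, was present in 1 of 9, that of Timp1 at position 27, and in 2.68% of all windows. Since this variant was already known from that promoter, its match in Timp1 could be foreseen and carries no weight. The GC box GGGCGG was present in 6 of 9 and in 35.7% of all windows, and the TATA box TATAAA in 1 of 9, that of Adamts1, and in 13.6% of all windows. A match describes these letters in this window and shows neither binding nor a cause.

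Of the 10 genes, 5 were higher and 1 was lower in the bleomycin arrays by limma with Benjamini-Hochberg adjustment over all 22180 genes. Over all tested genes 9.12% passed as higher and 8.24% as lower, 17.4% in all. With each array centred on its median the counts over all genes were 1623 higher and 2314 lower, against 2022 and 1828 with the values as deposited. The inhibitors did not move together, since Timp1 rose and Timp3 fell. Among the proteases Adam12, Adam19 and Adamts4 rose by more than 2.7-fold, Adam8 rose slightly, and Adamts1 and Adamts5 did not pass. The groups did not overlap in 7 of the 10 genes, against 23.5% of all tested genes. The members were chosen with earlier results of these data known, so these shares describe the 10 genes.

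**Figure D1:**
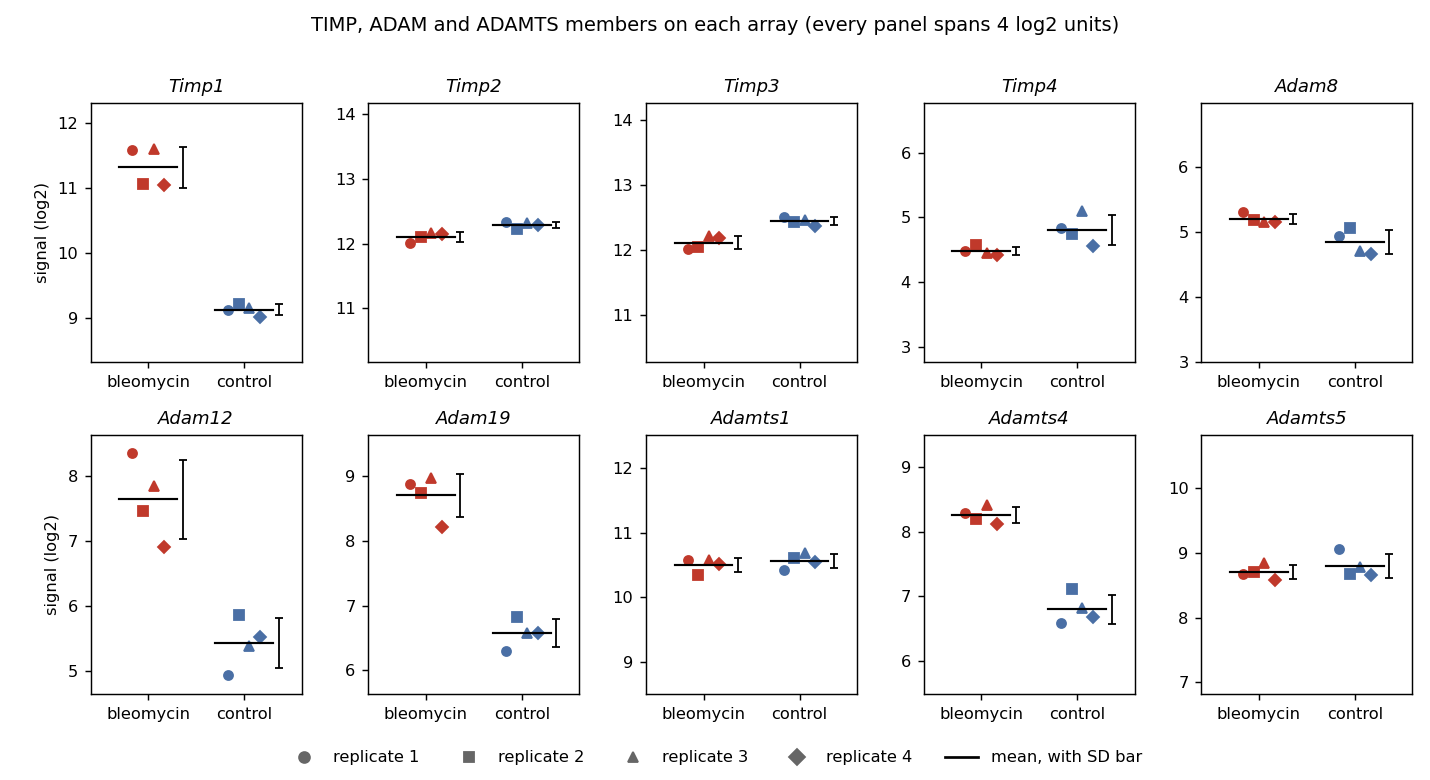
Signal (log2) of the 10 genes on each array, with bleomycin at the left and control at the right of each panel; symbols mark the replicate number, the line is the mean and the bar the SD (n = 4 each). Every panel spans the same range of log2 units, so the separate clouds of Timp1, Adam12, Adam19 and Adamts4 can be set against the small shifts of the other genes.

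Levels are given as log2 signal in the order of replicates 1 to 4, and differences as bleomycin minus control in log2 units. Timp1 encodes the inducible secreted inhibitor of most matrix metalloproteinases. Its level was 11.59, 11.06, 11.61 and 11.04 in the bleomycin arrays, against 9.12, 9.22, 9.15 and 9.02 in the control arrays. Each bleomycin array stood above every control array, and the controls lay close together. The mean was 11.33 ± 0.32 in bleomycin and 9.13 ± 0.08 in control arrays (SD, n = 4 each), a difference of 2.20 (95% interval 1.88 to 2.52), or 4.59-fold (limma adjusted p = 1.61e-05).

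The other inhibitors were slightly lower or did not pass. Timp3, which binds to the matrix and inhibits several ADAM and ADAMTS enzymes as well as matrix metalloproteinases, had 12.01, 12.05, 12.21 and 12.18 in bleomycin arrays, against 12.51, 12.42, 12.46 and 12.37 in control arrays. The groups did not overlap, yet the gap between the nearest arrays was small. Timp3 fell by 0.33 (95% interval -0.52 to -0.14, limma adjusted p = 0.023). This call is weak, because it was lost without control replicate 1 (adjusted p = 0.0654), without control replicate 3 (0.0621), without bleomycin replicate 1 (0.0624) and without bleomycin replicate 2 (0.0541), where the difference was between -0.32 and -0.30. Markers of cell types that the gate should remove also differed between the groups, where 9.12% of all tested genes passed as higher and 8.24% as lower. Of 13 epithelial markers 9 fell and none rose, and their summed signal (log2 of the sum) ranged from 11.05 to 12.29 in bleomycin and from 13.42 to 14.29 in control arrays. Of 12 endothelial markers 9 fell and none rose, with summed signals from 10.94 to 11.49 in bleomycin and from 11.79 to 12.93 in control arrays. The part of cells of these types in the Timp3 difference was not tested. Without control replicates 1 and 2, the arrays with the highest signals of both marker lists, Timp3 differed by -0.30 and did not pass (limma adjusted p = 0.137). In such bulk samples fewer cells of a type and less RNA per cell cannot be told apart.

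Timp2, which inhibits matrix metalloproteinases and also takes part in the activation of Mmp2 at the cell surface, had 12.00, 12.10, 12.17 and 12.15 in bleomycin arrays, against 12.33, 12.23, 12.32 and 12.29 in control arrays. The groups did not overlap, but the difference of -0.19 (95% interval -0.36 to -0.01) did not pass (limma adjusted p = 0.146). Timp4, the family member best known from heart and fat tissue, had 4.49, 4.57, 4.46 and 4.42 in bleomycin arrays, against 4.83, 4.74, 5.10 and 4.55 in control arrays. Control replicate 4 lay below bleomycin replicate 2, so the groups overlapped. The difference of -0.32 (95% interval -0.58 to -0.06) did not pass (limma adjusted p = 0.0854), whereas without control replicate 4 it was -0.41 and passed (adjusted p = 0.0368). The Timp4 levels were near the medians of the rows with no annotated gene, which ranged from 4.20 to 4.35 in bleomycin and from 4.44 to 4.52 in control arrays, so whether Timp4 was detected cannot be told from these values.

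Timp1, Timp3 and Timp4 each lie inside a synapsin gene in the RefSeq annotation (GRCm38.p6), Timp1 in Syn1 on chromosome X, Timp3 in Syn3 on chromosome 10 and Timp4 in Syn2 on chromosome 6. Synapsins coat synaptic vesicles in neurons. These 3 genes are outside the rule for named genes and were added for their position. Syn1 averaged 6.57 ± 0.20 in bleomycin and 5.69 ± 0.11 in control arrays (SD, n = 4 each), a difference of 0.88 (limma adjusted p = 0.000605). Syn2 averaged 9.35 ± 0.11 in bleomycin and 8.76 ± 0.19 in control arrays, a difference of 0.58 (adjusted p = 0.00539). Syn2 thus rose while the difference of Timp4 inside it was negative, and Syn3 and Timp3 differed by 0.06 (adjusted p = 0.81) and -0.33. Whether the rows of a synapsin gene and of the inhibitor inside it share signal was not tested.

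Of the membrane proteases, Adam12 and Adam19 rose strongly. Adam12 encodes meltrin alpha, known from developing muscle and from stromal progenitors that respond to injury in mice. Its level was 8.36, 7.46, 7.85 and 6.91 in bleomycin arrays, against 4.93, 5.87, 5.39 and 5.52 in control arrays. All bleomycin arrays lay above all control arrays, with a wide spread in both groups and bleomycin replicate 4 nearest the controls. The mean was 7.64 ± 0.61 in bleomycin and 5.43 ± 0.39 in control arrays (SD, n = 4 each), a difference of 2.22 (95% interval 1.58 to 2.85), or 4.65-fold (limma adjusted p = 0.000586).

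Adam19 encodes meltrin beta, a protease that can shed neuregulin and is needed for heart development in mice. Its level was 8.87, 8.74, 8.97 and 8.22 in bleomycin arrays, against 6.30, 6.83, 6.57 and 6.58 in control arrays. Bleomycin replicate 4 was again the lowest of its group and still stood above every control. The mean was 8.70 ± 0.34 in bleomycin and 6.57 ± 0.22 in control arrays (SD, n = 4 each), a difference of 2.13 (95% interval 1.76 to 2.50), or 4.38-fold (limma adjusted p = 4.35e-05). Adam19 was the one gene of the 10 with a second row. That dimmer row had 6.34, 5.96, 5.32 and 4.26 in bleomycin arrays, against 4.05, 3.99, 4.15 and 3.63 in control arrays. It rose too, by 1.52 (95% interval 0.71 to 2.33, limma adjusted p = 0.0179 over all rows with 1 gene), and bleomycin replicate 4 barely cleared the controls there.

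Adam8, an ADAM best known from leukocytes, had 5.31, 5.19, 5.16 and 5.15 in bleomycin arrays, against 4.93, 5.06, 4.71 and 4.67 in control arrays. The bleomycin arrays clustered tightly and the nearest control, replicate 2, lay just under them. Adam8 rose by 0.36 (95% interval 0.12 to 0.59), or 1.28-fold (limma adjusted p = 0.0416). The call held without control replicate 2 (adjusted p = 0.023) and was lost when any other single array was left out: control replicate 1, 3 or 4 (adjusted p of 0.0615, 0.114 and 0.102) or bleomycin replicate 1, 2, 3 or 4 (adjusted p of 0.105, 0.0733, 0.0737 and 0.0596), with differences between 0.30 and 0.39. It was also lost with each array centred on its median (0.31, adjusted p = 0.0673). Of 16 leukocyte markers 5 rose and 1 fell, against 9.12% higher and 8.24% lower of all tested genes. Their summed signal (log2 of the sum) ranged from 10.98 to 11.50 in bleomycin and from 11.08 to 11.74 in control arrays. Of the macrophage genes on that list, Cd68 rose by 0.70 and Adgre1 by 0.50 (limma adjusted p of 0.00493 and 0.00991). Csf1r differed by 0.34 and did not pass (adjusted p = 0.0975). Itgam, Fcer1g and Tyrobp were the other markers that rose, by 0.47, 0.45 and 0.35 (adjusted p of 0.0313, 0.036 and 0.0488). Lyz2 had the highest signal of the list, 10.17 in bleomycin and 10.74 in control arrays, and so weighs most in the sum. It differed by -0.57 and did not pass (adjusted p = 0.0951). The B cell receptor gene Cd79a fell by 0.84 (adjusted p = 0.00246). Ptprc, which encodes CD45 itself, differed by -0.48 and did not pass (adjusted p = 0.0529), although it passed without control replicate 4 (-0.63, adjusted p = 0.00496) and with median centring (-0.53, adjusted p = 0.0345). Of the 16 leukocyte markers 2 had control means below the medians of the rows with no annotated gene. The part of leukocytes in the Adam8 difference was not tested. The control mean of Adam8, 4.84, was as close to the medians of the rows with no annotated gene as that of Timp4, so the same limit on detection holds and the fold is uncertain. Cd68, Adgre1, Csf1r, Itgam, Fcer1g, Tyrobp, Lyz2 and Cd79a are outside the rule for named genes and were chosen after their values were seen.

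The 3 aggrecanase-type enzymes differed among themselves. Adamts4, which cleaves aggrecan and versican, had 8.28, 8.20, 8.41 and 8.11 in bleomycin arrays, against 6.58, 7.11, 6.81 and 6.69 in control arrays. The groups were well apart and the bleomycin arrays close together. The mean was 8.25 ± 0.13 in bleomycin and 6.80 ± 0.23 in control arrays (SD, n = 4 each), a difference of 1.45 (95% interval 1.18 to 1.73), or 2.74-fold (limma adjusted p = 5.83e-05).

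Adamts1, a versican-cleaving enzyme also known to restrain angiogenesis, had 10.58, 10.34, 10.57 and 10.52 in bleomycin arrays, against 10.43, 10.60, 10.68 and 10.54 in control arrays. Adamts5, the main aggrecanase of mouse cartilage, had 8.67, 8.71, 8.84 and 8.58 in bleomycin arrays, against 9.06, 8.67, 8.78 and 8.66 in control arrays. The groups overlapped in both genes. The difference of Adamts1 was -0.06 (95% interval -0.27 to 0.15, limma adjusted p = 0.715) and that of Adamts5 was -0.10 (95% interval -0.34 to 0.15, adjusted p = 0.606). Both intervals leave out a change of the size measured in Adamts4. Adamts1 and Adamts5 lie near each other on chromosome 16, with 1 annotated gene between them in RefSeq (GRCm38.p6), and Adamts4 is on chromosome 1.

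**Figure D2:**
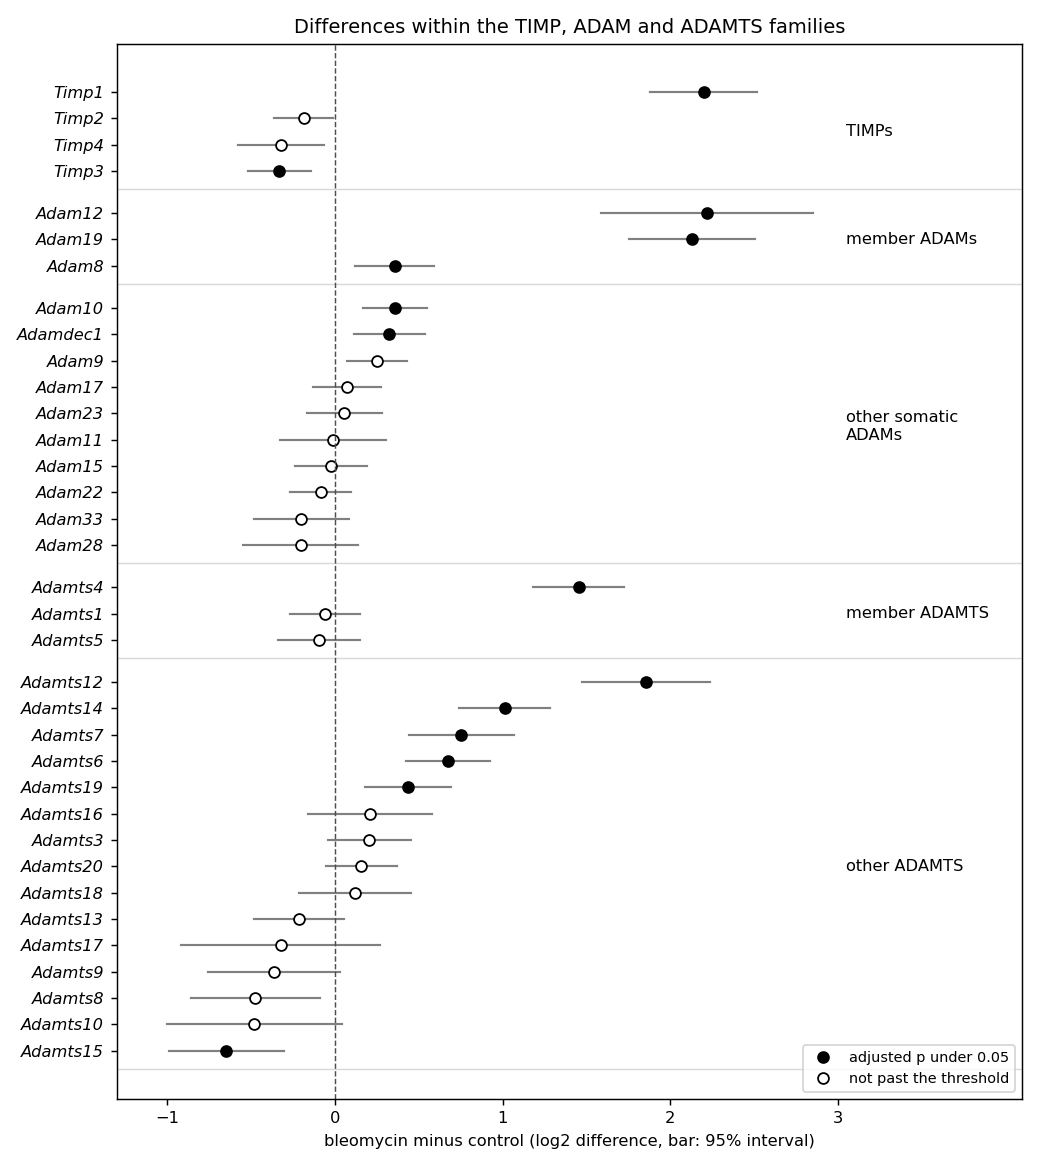
Bleomycin minus control (log2 difference) for the measured TIMPs, somatic ADAMs and ADAMTS proteases, with 95% intervals; filled circles passed at an adjusted p under 0.05. Timp1, Adam12, Adam19, Adamts4 and Adamts12 stand to the right at 1.45 to 2.22, and most other ADAMs lie near 0.

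The rest of the families served to set these genes in context, from lists written with earlier results of these data known. The median difference over all tested genes was 0.03, and 9.12% of them passed as higher and 8.24% as lower. Of 10 other somatic ADAMs 2 rose and none fell, with a median of 0.02 and a range from -0.20 to 0.36. Adam10, which releases Notch and cadherin ectodomains, rose by 0.36 ± 0.09 (difference ± SE, limma adjusted p = 0.0164). The call was lost without control replicate 3 (0.34, adjusted p = 0.0502). It was also lost without control replicates 1 and 2, where the difference was not smaller (0.41, adjusted p = 0.0554). The secreted family member Adamdec1 rose by 0.33 ± 0.09 (adjusted p = 0.0381), and this call held in 1 of the 8 fits that left out an array (0.28 to 0.39, adjusted p from 0.0179 to 0.101). Adam17, which sheds tumour necrosis factor and EGF receptor ligands, was chosen after its values were seen and differed by 0.07 (95% interval -0.13 to 0.27, adjusted p = 0.646).

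Of 20 ADAMs known mainly from testis and the reproductive tract 1 rose and 2 fell, with a median of 0.05. The shares over all tested genes were 9.12% higher and 8.24% lower. Adam20 rose by 0.42, Adam3 fell by 0.68 and Adam4 fell by 0.80 (limma adjusted p of 0.00857, 0.006 and 0.0394). The Adam4 call held in 2 of the 8 fits that left out an array (adjusted p from 0.00681 to 0.101). Of these 20 genes 16 had control means under the medians of the rows with no annotated gene, so their differences may lie at background.

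Among 15 other ADAMTS proteases 5 rose and 1 fell, with a median of 0.16, against 9.12% higher and 8.24% lower of all tested genes. Adamts12, which like Adamts7 can cleave cartilage oligomeric matrix protein, averaged 9.82 ± 0.28 in bleomycin and 7.96 ± 0.29 in control arrays (SD, n = 4 each), a difference of 1.86 (limma adjusted p = 9.88e-05). Adamts14, a procollagen amino-propeptidase, rose by 1.01 (adjusted p = 0.000419), and by 0.66 where all rows of the gene were averaged (adjusted p = 0.0102). Adamts7 rose by 0.75 (adjusted p = 0.00483). Adamts15, a versican-cleaving enzyme, averaged 9.45 ± 0.29 in bleomycin and 10.09 ± 0.21 in control arrays and fell by 0.65 (adjusted p = 0.0162), a call that was lost without control replicates 1 and 2 (-0.68, adjusted p = 0.0519). None of 6 ADAMTS-like proteins and papilin, relatives without a protease domain, passed. The brightest of them, Adamtsl2, which binds latent TGF-beta binding protein, differed by -0.40 (adjusted p = 0.26), and it passed without control replicate 1 (-0.61, adjusted p = 0.0488).

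Genes that act on these proteases were listed as well. Of 16 regulators 3 rose, 3 fell and 10 did not pass, with a median of 0.02. Over all tested genes 9.12% passed as higher and 8.24% as lower. Reck, a membrane-anchored inhibitor of metalloproteinases, averaged 9.33 ± 0.18 in bleomycin and 10.25 ± 0.13 in control arrays (SD, n = 4 each) and fell by 0.92 (limma adjusted p = 0.000465). The tetraspanin gene Tspan15, whose product guides ADAM10, fell by 1.06 (adjusted p = 0.000788) and by 0.83 without control replicates 1 and 2 (adjusted p = 0.00772). Furin, the convertase that removes the inhibitory propeptide of many ADAM and ADAMTS enzymes, rose by 0.54 (adjusted p = 0.00187), while its relative Pcsk6 fell by 0.62 (adjusted p = 0.0114), a call that was lost without control replicates 1 and 2 (-0.43, adjusted p = 0.116). Tspan15 had 7.60, 7.42, 7.09 and 7.01 and Pcsk6 had 7.24, 7.19, 6.89 and 6.81 in control replicates 1 to 4, higher in replicates 1 and 2, as were the epithelial and endothelial markers, which fell in the bleomycin arrays. The part of those cells in these differences was not tested. A2m, a broad protease trap, rose by 1.37 (adjusted p = 0.000956). The convertase Pcsk5 rose by 0.32 (adjusted p = 0.0482), a call that held in 1 of the 8 fits that left out an array (0.27 to 0.38, adjusted p from 0.0254 to 0.124).

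For the counts that follow, the shares over all tested genes were 9.12% higher and 8.24% lower. Among substrates, 2 of 8 lecticans and link proteins rose and none fell, with a median of -0.03. Versican, Vcan, averaged 9.55 ± 0.10 in bleomycin and 8.51 ± 0.20 in control arrays (SD, n = 4 each), a difference of 1.03 (limma adjusted p = 0.000248). Aggrecan, Acan, rose by 0.61 (adjusted p = 0.0274), with a control mean of 3.97 that lay below the medians of the rows with no annotated gene. The Acan call was lost without control replicate 1, 2 or 3 and without bleomycin replicate 1 or 3 (adjusted p up to 0.0754, differences from 0.50 to 0.71 over the 8 fits). Of 22 membrane proteins that ADAMs shed 8 rose and 4 fell, with a median of 0.24. The neuregulin gene Nrg1, a substrate of Adam19, rose by 1.51 and the EGF receptor ligand gene Hbegf by 1.46 (adjusted p of 0.0007 and 0.000936). The interleukin-6 receptor gene Il6ra fell by 1.70 and the efferocytosis receptor gene Mertk by 1.14 (adjusted p of 0.000199 and 0.00107). Of 22 matrix metalloproteinases, the main targets of the TIMPs, 7 rose and 2 fell, with a median of 0.16.

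The genes whose level followed Timp1 and Adam12 most closely over the 8 arrays were found by the root mean square difference of log2 values after each gene's mean was taken off. This measure is set mostly by the difference between the groups, and says nothing of shared function. The nearest to Timp1 were Col12a1, a fibril-associated collagen, Fam110c, and Zbp1, a sensor of nucleic acid in Z form, at 0.08, 0.11 and 0.13 log2 units, and these rose by 2.25, 2.22 and 2.22. Adam12 had the largest difference of the 10 as reported, 2.22 against 2.20 for Timp1, and this order turned round within replicates 3 and 4, where Adam12 differed by 1.92 and Timp1 by 2.24. The nearest to Adam12 were Ccna2, E2f8 and Plk1 at 0.18, 0.21 and 0.24, genes of cell division that rose by 2.41, 2.37 and 2.07. In Adam12 and in all 3 of its neighbours bleomycin replicate 1 was the highest array and bleomycin replicate 4 the lowest of its group. The neighbours were picked for following Adam12 on each array, so this shared order is partly built in.

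**Figure D3:**
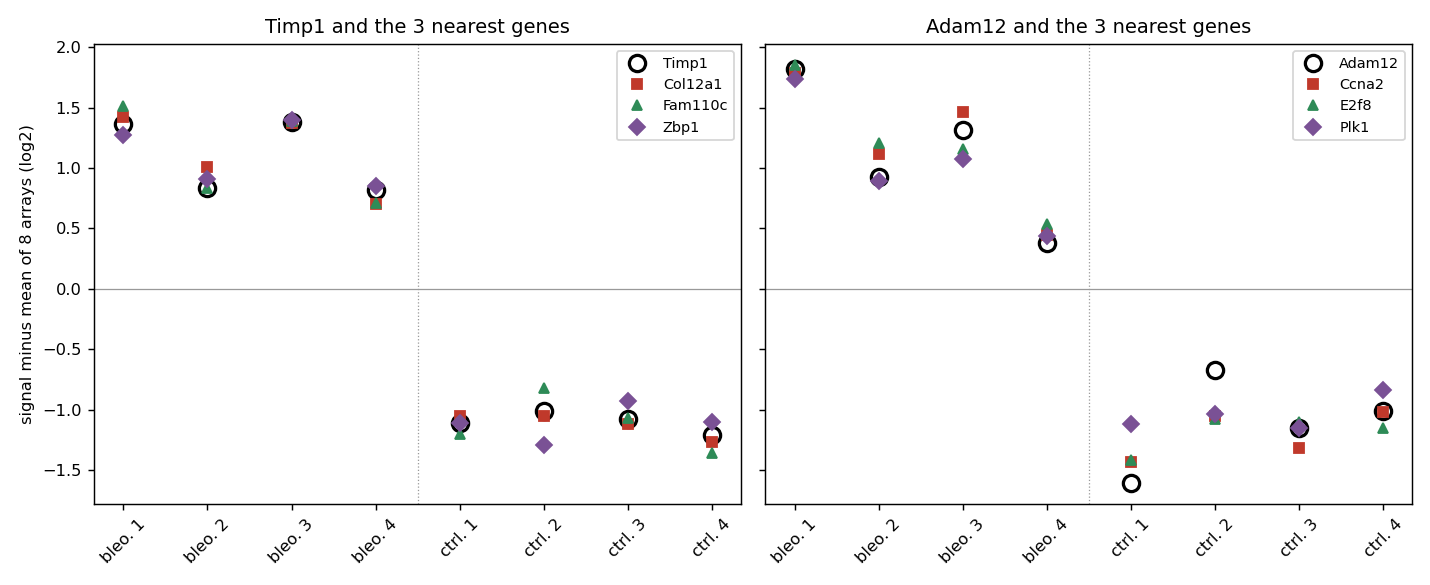
Signal minus the gene's mean over the 8 arrays (log2) for Timp1 (left) and Adam12 (right), each an open circle, with the 3 nearest genes; bleomycin arrays stand left of the dotted line and control arrays right of it. Bleomycin replicate 4 is the bleomycin array nearest the controls for Adam12 and its neighbours.

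The labelled cell type was checked against marker lists, beside shares of 9.12% higher and 8.24% lower over all tested genes. Of 9 mesenchymal markers 6 rose and 1 fell, and Col1a1 averaged 12.77 in bleomycin and 11.94 in control arrays. The receptor gene Pdgfra averaged 12.15 in bleomycin and 12.58 in control arrays, and Pdgfrb averaged 11.07 in bleomycin and 10.21 in control arrays. Pecam1, which encodes the CD31 of the gate, averaged 8.56 in bleomycin and 9.87 in control arrays and fell by 1.31 (limma adjusted p = 0.00486), and by 0.85 without control replicates 1 and 2 (adjusted p = 0.0281). Epcam averaged 4.43 in bleomycin and 4.99 in control arrays and did not pass (adjusted p = 0.0547), although it passed without control replicate 4 (adjusted p = 0.045), without bleomycin replicate 4 (adjusted p = 0.0301) and with median centring (adjusted p = 0.0369). Of the 13 epithelial markers, however, 9 fell, 4 did not pass and none rose. Sftpc, the brightest of them, averaged 9.76 in bleomycin and 12.08 in control arrays. It fell by 2.33 (limma adjusted p = 0.000655). Sftpc is outside the rule for named genes and was chosen after its values were seen. Of 9 pericyte and smooth muscle markers 5 rose and none fell, and their summed signal (log2 of the sum) ranged from 12.35 to 13.01 in bleomycin and from 11.30 to 11.45 in control arrays. The contractile genes Acta2 (12.04 in bleomycin and 10.12 in control arrays) and Des (10.17 in bleomycin and 8.84 in control arrays) rose. Their bleomycin means were the highest of the list. Acta2 was the brightest of the list in both groups and so weighs most in the sum. Which cells of the gate carried the Acta2 signal was not tested. Cspg4, Cnn1 and Notch3 rose too, by 1.37, 0.88 and 0.63 (limma adjusted p of 0.00115, 0.0219 and 0.00191). No call was made for Rgs5, Kcnj8, Cox4i2 and Myh11, with differences of 0.21, 0.02, -0.42 and 0.25 (limma adjusted p 0.523, 0.941, 0.0538 and 0.221). These genes are outside the rule for named genes and were chosen after their values were seen. The part of pericytes and smooth muscle cells in the rises of Timp1, Adam12, Adam19 and Adamts4 was not tested. Of 6 mesothelial markers none rose, 1 fell and 5 did not pass. Their summed signal (log2 of the sum) ranged from 9.97 to 10.59 in bleomycin and from 10.95 to 11.08 in control arrays. The brightest, Upk1b, averaged 9.74 in bleomycin and 10.70 in control arrays and fell by 0.96 (limma adjusted p = 0.00234). Upk1b is outside the rule for named genes too. The part of mesothelial cells in the differences of the 10 genes was not tested.

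**Figure D4:**
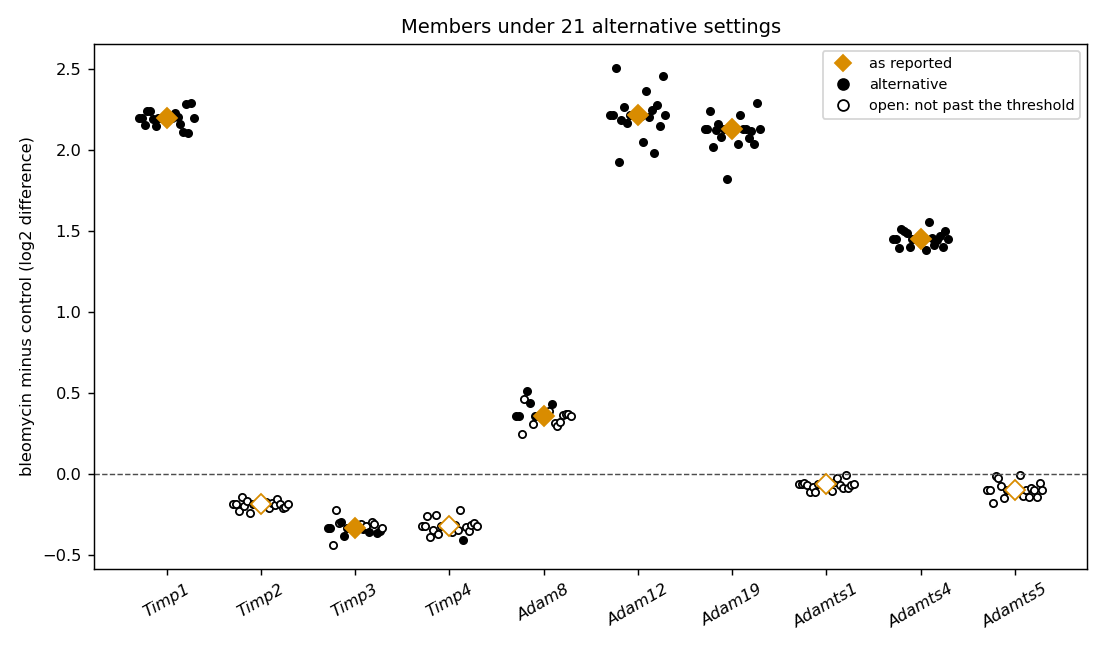
Bleomycin minus control (log2 difference) of the 10 genes as reported (diamonds) and under 21 other settings (circles, spread sideways so they can be seen); open symbols did not pass the threshold. Timp1, Adam12, Adam19 and Adamts4 passed under every setting shown, Adam8 and Timp3 under some, and no gene changed sign.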

How the data were processed

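The deposited values are 1 number per array row and sample, taken to be log2 signals because they run from 0.24 to 13.58. How the authors corrected background, summarised probes and normalized is not given in the sources used here. Per the labels' protocols, biotinylated cRNA was made from 100 ng of total RNA. Arrays have no read depth, so their number limits precision, and detection calls were not used here. Of 41345 rows, 23521 had 1 gene in the probe annotation, 1814 several and 16010 none. The brightest row of each of 22180 genes was kept, and no row with several genes was named. No genome build comes with the values, so gene coordinates are given for promoter sequences alone.

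The bleomycin and control arrays were compared in limma 3.58.1 (lmFit, then eBayes; R 4.3.3), two-sided, adjusted by Benjamini-Hochberg over all genes, threshold 0.05. The members and lists were chosen with earlier results of these data known. Named beside the 10 members were the gate genes, Col1a1, Pdgfra, Pdgfrb, up to 3 passing genes per list and direction (else the brightest), and the 3 nearest patterns of Timp1 and of the member with the largest difference. Some eligible genes appear in counts alone. On simulated data with 200 of 22180 genes changed, 44.8% of the changes of 1.5-fold passed, as did 82.1% at 2-fold and 97% at 4-fold, and 3.25% of calls were false. In the data 3850 genes (17.4%) passed, far more than were changed there, so these rates need not carry over. Motifs were searched with Python 3.11.15 and figures drawn with matplotlib 3.10.9. Alternatives were blocks, subsets of arrays, normalizations, row choices, eBayes settings, array weights and a stricter threshold.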

Additional observations from a re-analysis of the deposited data

How the results depend on the processing

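Timp1, Adam12, Adam19 and Adamts4 passed under all 21 alternatives, with differences of 2.10 to 2.29, 1.92 to 2.51, 1.82 to 2.29 and 1.38 to 1.56, and Adamts1 and Adamts5 under none. No member changed sign. Timp3 did not pass within replicates 1 and 2 (-0.44), within replicates 3 and 4 (-0.22), without control replicates 1 and 2 (-0.30) or at a threshold of 0.01 (-0.33, adjusted p = 0.023), and leaving out each array in turn gave -0.36 to -0.30. Adam8 did not pass within replicates 1 and 2 (0.25), within replicates 3 and 4 (0.46), with median centring (0.31) or at a threshold of 0.01 (0.36, adjusted p = 0.0416), and leaving out each array gave 0.30 to 0.43. Timp2 passed with a trended and robust eBayes (-0.19, adjusted p = 0.0493), and Timp4 without control replicate 4, in a range of -0.41 to -0.22. The smaller subsets hold fewer arrays and the stricter threshold asks for more. Otherwise the cause was not tested. Among all genes, replicates 1 and 2 alone gave 838 higher and 833 lower, replicates 3 and 4 alone 503 and 220, the fit without control replicates 1 and 2 gave 1205 and 992, and the threshold of 0.01 gave 1079 and 879. The replicate number as a block gave 1937 higher and 1838 lower genes and changed no member's call (adjusted p of 0.0492 for Timp3 and 0.0447 for Adam8). In that fit Adamdec1, Adam4, Acan and Pcsk5 lost their calls (limma adjusted p of 0.0663, 0.0608, 0.0765 and 0.0899). Deviations of same-numbered arrays correlated at 0.13, 0.06, 0.11 and 0.06, and not every array correlated best with its own number, so the numbers were not taken as pairs. Deviations of bleomycin and control arrays correlated at 0.06 to 0.13 within replicates 1 and 2 and within 3 and 4, and at -0.14 to -0.07 across these sets. With the sets as a block 2293 genes were higher and 2168 lower, no member's call changed, and among the other named genes Adam4 lost its call (adjusted p = 0.0512) and Ptprc gained one (adjusted p = 0.0362). Of 336 recomputed list counts 75 moved by over 1.5 times. The risen genes ranged from 0 to 3 for other somatic ADAMs (2 as reported), 0 to 2 for reproductive tract ADAMs (1), 2 to 5 for other ADAMTS proteases (5), 1 to 2 for lecticans and link proteins (2), 1 to 4 for regulators (3), 4 to 9 for shed membrane proteins (8) and 4 to 8 for matrix metalloproteinases (7). The fallen genes ranged from 0 to 3 for reproductive tract ADAMs (2) and for other ADAMTS proteases (1), 0 to 2 for ADAMTS-like proteins (0), 1 to 6 for shed membrane proteins (4) and 1 to 3 for matrix metalloproteinases (2).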
